A study of Mus musculus with 104 samples.

Results

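D6 is a small interfering RNA (siRNA) against mouse transthyretin mRNA (Ttr) that carries 1 glycol nucleic acid (GNA) residue with an isoguanine base, GNA-isoG, at position 6 of its guide strand. The 4 libraries whose treatment label gives D6 at 10 nM were compared with the 8 libraries from mock-transfected cells, in a series of 25 groups, of which 24 are siRNA and dose groups with 4 libraries each. The cells were primary mouse hepatocytes from a commercial source, transfected with the duplex and Lipofectamine RNAiMAX in multiwell plates and harvested after 24 h. Mock cells are given as mock only, so that the agents they received beyond that word are not known from the labels. The study set 6 siRNAs, D1 to D3 against Hao1 and D4 to D6 against Ttr, each at several doses, side by side. D4 is the parent of D6 without GNA, and D5 carries GNA with a guanine base, GNA-G, at the same guide position 6, so that D4, D5 and D6 share 1 guide sequence and differ at this nucleotide. All are fully modified GalNAc-conjugated duplexes with 2′-fluoro and 2′-O-methyl sugars. Nothing in the labels says that the libraries of a group came from separate animals, so p-values measure the spread between these wells and libraries.

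An siRNA guide strand is loaded into Argonaute 2, which cleaves mRNAs that pair with it along its length. The guide also works as a microRNA does: pairing of its seed, the bases near its 5′ end, with a 3′-UTR is enough to lower an mRNA through TNRC6 proteins and deadenylation, and such off-target repression is a known liability of siRNAs. GNA has an acyclic 3-carbon backbone, and a GNA residue in the seed weakens seed pairing. TTR, which hepatocytes secrete into plasma, carries thyroxine and, with RBP4, retinol.

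In total, 2923 of 11310 genes tested (25.8%) differed between D6 at 10 nM and mock, of which 1347 were higher (11.9%) and 1576 lower (13.9%) with D6 (edgeR quasi-likelihood test, Benjamini-Hochberg adjusted p under 0.05). Most of these differences were small. The median log2 fold change was 0.38 for genes called higher and −0.40 for genes called lower, and a log2 fold change beyond 1 was reached by 76 called genes upward and by 136 downward. Of the 2923 genes, 1542 had all 4 D6 libraries on one side of all 8 mock libraries. Libraries held 3826700 to 5247987 gene counts with D6 and 3409963 to 5308584 with mock. The share of counts from mitochondrially encoded genes lay between 3.41% and 3.6% with D6 and between 2.98% and 3.34% with mock, with no overlap. Its part in the results below was not tested.

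**Figure D1:**
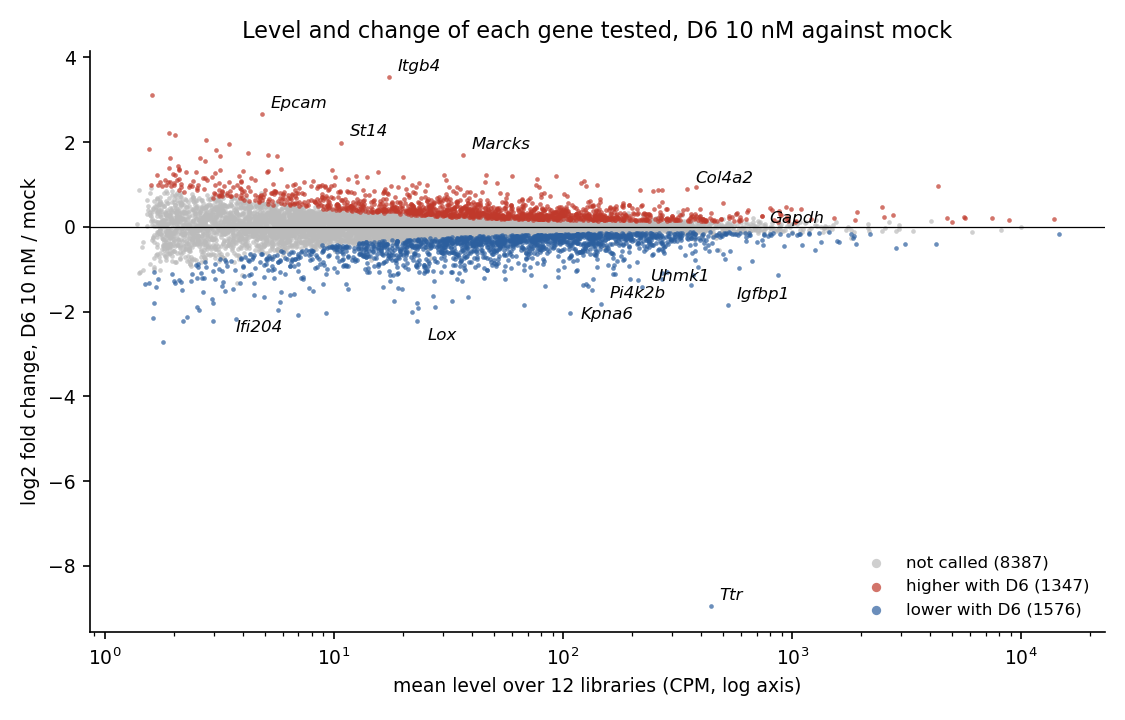
Each point is 1 of the 11310 genes tested, with its mean over the 12 libraries in CPM (counts scaled to library size) on a log x axis and its log2 fold change between D6 at 10 nM and mock on the y axis. Ttr lies alone near −9, Itgb4 is the highest of the named genes at 3.53, and most called genes lie within 1 of 0.

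The hepatocyte identity of the cells was checked on 12 marker genes, whose summed level was 25260 to 28070 CPM with D6 and 23390 to 28910 CPM with mock. Most of this sum came from Alb, the albumin gene, at a mean of 15090 CPM with D6, and Trf, the transferrin gene, at 5764 CPM. The sum does not show that some markers were low in both groups. Cps1, Asgr1 and Tdo2 had means of 3.11, 3.29 and 6.18 CPM with D6 and 4.87, 3.35 and 3.72 CPM with mock. Of the 12 markers 4 were lower with D6 (Cyp2e1, Apob, Apoa1 and Cps1) and 2 higher (Alb and Tdo2, the call of Tdo2 being lost without D6 replicate 1 or 2). CPM denotes counts scaled to a common library size, here with TMM factors. Of 13 macrophage markers, 10 had no count in any D6 library (9 in mock), among them Adgre1, Clec4f and Timd4. The macrophage markers summed to 17.3 to 39.6 CPM with D6 and 16.3 to 23.2 CPM with mock, most of it from Cd68, a lysosomal protein, at a mean of 25.8 and 19.8 CPM. Endothelial markers summed to 5.27 to 12 CPM with D6 and 7.16 to 15.3 CPM with mock, with Cdh5 and Tek at 0 and Stab1 at a mean of 5.08 and 6.93 CPM. Stellate cell markers summed to 19.4 to 25.7 CPM and 15.0 to 26.7 CPM, with Des at 0 and Reln at a mean of 22.0 and 19.6 CPM. Of 8 cholangiocyte markers none was at 0, and their summed level was 276 to 299 CPM with D6 and 226 to 250 CPM with mock, without overlap. In D4 and D5 at 10 nM this sum was 286 to 345 CPM and 277 to 345 CPM. Krt19 held the largest part of it, at a mean of 156 CPM with D6 and 113 CPM with mock. Of 8 lymphocyte markers, 5 had no count in either group.

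Ttr, the intended target, was at 1.39, 1.04, 1.78 and 1.13 CPM in the 4 D6 libraries, which is 7, 5, 7 and 6 counts. In mock it ranged from 541 to 720 CPM with a median of 678 CPM. The groups are far apart, and the mean of D6 was 0.202% of that of mock. The log2 fold change was −8.95 (SE 0.13, 95% confidence interval −9.21 to −8.69, adjusted p = 3.65e-36, edgeR). With the parent D4 Ttr was at 1.44, 1.78, 2.21 and 0.577 CPM and with D5 at 1.71, 2.95, 2.27 and 3.84 CPM, which overlap the D6 values in both cases. Too few counts remained for the main test of these pairs. When all genes with a count were tested, the log2 fold change of Ttr between D6 and D4 was −0.19 (95% confidence interval −1.20 to 0.82, adjusted p = 0.903, edgeR), and between D6 and D5 it was −1.04 (95% confidence interval −1.88 to −0.21, adjusted p = 0.129). An adjusted p above 0.05 does not show that these siRNAs silenced Ttr alike.

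Seed matches were searched in the longest annotated 3′-UTR of each protein-coding gene, on the transcript strand, for letters complementary to guide positions 2 to 8. A mer8 match is CTCTATAA (positions 2 to 8 and an A opposite position 1), a mer7m8 match CTCTATA (positions 2 to 8) and a mer7A1 match TCTATAA (positions 2 to 7 and the A). A mer8 match contains both of the shorter ones, and each gene was placed under its strongest match. The sites below are those of the 6 mer8 genes other than Ttr with the largest decrease, and show the letters that were searched in their context. Each is read 5′ to 3′ from GRCm39 on the gene's strand, with the mer8 match in capitals.
Ifi204, chr1:173574920-173574949, minus strand: tcatttgttgtCTCTATAActtctataact
Igfbp1, chr11:7150776-7150805, plus strand: gccaacgagaaCTCTATAAagtgctagaga
Axl, chr7:25457714-25457743, minus strand: gatttttctggCTCTATAAttcgtggcaat
Gbp7, chr3:142252421-142252450, plus strand: tataggtcactCTCTATAAattaatggcaa
Dmd, chrX:84247285-84247314, plus strand: catataaacatCTCTATAAttacaactaaa
Uhmk1, chr1:170026693-170026722, minus strand: gagctaacacaCTCTATAAccatttcttcc
The 8 capitals are shared by the 6 sites, the third of them (C) facing GNA-isoG at guide position 6. In Igfbp1 the match is in the longest 3′-UTR searched, but not in the 3′-UTR of the canonical transcript. Whether it is a 3′-UTR site in these cells is therefore not known.

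Genes with a seed match were called lower more often than genes without one. Of 451 mer8 genes, 128 were lower (28.4%) and 28 higher (6.21%), with a median log2 fold change of −0.09. Of 891 mer7m8 genes 173 were lower (19.4%) and 87 higher (9.76%), with a median of −0.03. Of 1281 mer7A1 genes 282 were lower (22.0%) and 132 higher (10.3%), with a median of −0.05. Among 8082 genes with none of the 3 matches, 960 were lower (11.9%) and 1062 higher (13.1%), with a median of 0.02. Most mer8 genes were thus not called, and the difference in the middle of the distribution is small beside that at its lower end. Ttr itself was left out of these counts, and no test was made over the sets.

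**Figure D2:**
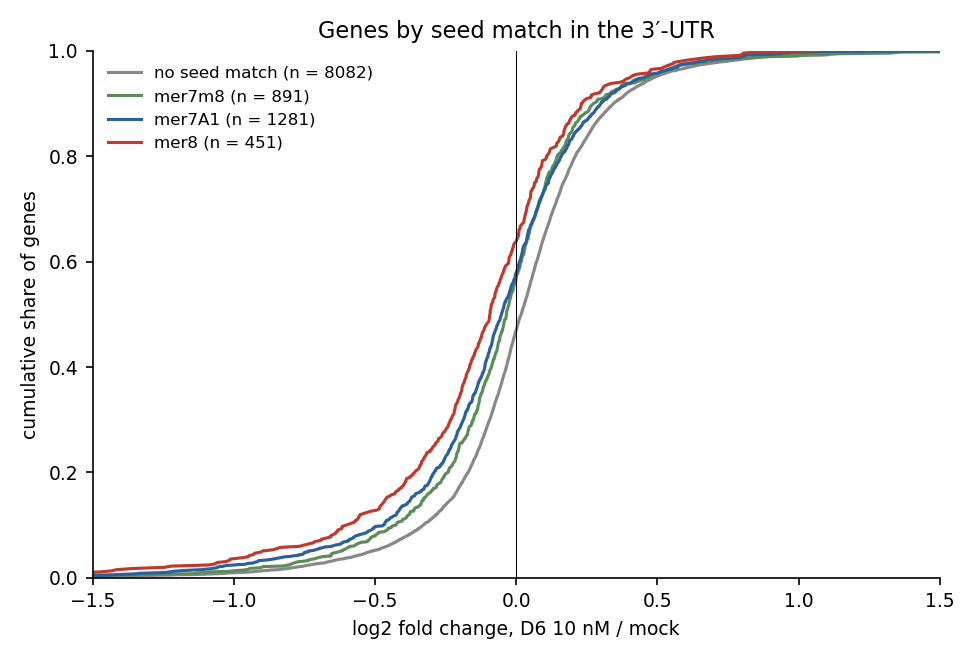
Cumulative share of genes (y axis) against the log2 fold change between D6 at 10 nM and mock (x axis, cut at −1.5 and 1.5), by the strongest seed match in the 3′-UTR. The curve of the 451 mer8 genes lies left of that of the 8082 unmatched genes, with medians of −0.09 and 0.02.

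Matched genes have longer 3′-UTRs. The median 3′-UTR length was 4150 bases for mer8 genes and 2698 bases for unmatched genes, and the part of length in the difference was not tested. Matches in which the C opposite guide position 6 is replaced give sets of similar length. With A in its place (CTATATAA, 535 genes, median length 4102 bases), 23.4% of genes were lower and the median log2 fold change was −0.04. For T (CTTTATAA, 926 genes, 4186 bases) these values were 20.6% and −0.03, and for G (CTGTATAA, 672 genes, 4185 bases) they were 15.8% and −0.00441. In the 7-letter form (positions 2 to 8 without the A), 20.6% of 1125 genes with A, 17.4% of 1478 genes with T and 17.3% of 1677 genes with G were lower, with medians of −0.05, −0.02 and −0.00874, so that the share with A exceeded the 19.4% of intact mer7m8 genes. A gene can hold more than 1 of these matches and an intact one as well. Without any intact match, 19.9% of 326 genes with A, 16.5% of 582 genes with T and 12% of 415 genes with G were lower in the 8-letter form, and 19% of 678, 13.6% of 960 and 14% of 1090 genes in the 7-letter form. Of the 1543 genes with an annotated 3′-UTR that were called lower, 37.8% held 1 of the 3 intact matches, against 18.9% of the 1309 called higher and 24.5% of the 10705 tested.

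The 6 mer8 genes show the size that single transcripts reached. Uhmk1, a kinase that phosphorylates the splicing factor SF1 and stathmin, was at 98.7, 106, 103 and 112 CPM with D6 and between 258 and 292 CPM (median 284) with mock. Its log2 fold change was −1.42 (SE 0.06, adjusted p = 2.66e-22). With D4 Uhmk1 was lower still, at 71.8, 48.4, 67.8 and 81.1 CPM (D6 against D4, log2 fold change 0.64, SE 0.11, adjusted p = 0.00409), whereas with D5 it was at 286, 269, 261 and 300 CPM, within or above the mock range. Igfbp1, a secreted IGF-binding protein that hepatocytes make under fasting and stress, was at 213, 182, 191 and 177 CPM with D6 and between 535 and 874 CPM (median 697) with mock, a log2 fold change of −1.86 (SE 0.15, adjusted p = 4.55e-06). The match of Igfbp1 is not in its canonical 3′-UTR, so its decrease may not be that of a gene with a 3′-UTR site. Axl, a receptor tyrosine kinase for GAS6, was at 7.56, 9.53, 9.42 and 8.09 CPM against 21.8 to 36.9 CPM (median 30.2), a log2 fold change of −1.80 (SE 0.14). In none of these 3 genes did a D6 library reach the mock range, which the rule that picked them required.

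Gbp7, an interferon-inducible GTPase, and Dmd, which encodes dystrophin, had log2 fold changes of −1.48 (SE 0.15) and −1.43 (SE 0.14). Ifi204, an interferon-inducible DNA sensor, was at 1.99, 3.11, 0.764 and 2.63 CPM with D6 and between 4.90 and 13.7 CPM with mock, a log2 fold change of −2.09 (SE 0.31, adjusted p = 7.40e-06). Ifi204 belongs to a family of near-identical genes and rests on 3 to 15 counts per D6 library, so its value is uncertain. Between D6 and D5, all 6 genes were lower with D6, from a log2 fold change of −2.31 for Ifi204 to −1.09 for Dmd, with adjusted p-values from 6.83e-18 (Uhmk1) to 3.48e-06 (Dmd, edgeR). The 6 genes were picked for low values in these same D6 libraries against mock. That choice favours lower values with D6 here, so the comparison with D5 is not independent of it. Between D6 and D4, Igfbp1 (0.47, SE 0.08, adjusted p = 0.00234) and Uhmk1 passed the test, both higher with D6.

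In each library the mean log2 CPM of mer8 genes minus that of unmatched genes was set against its mean in mock. With D6 this difference was −0.19, −0.18, −0.11 and −0.13 in the 4 libraries, below the 8 mock libraries at −0.03 to 0.03. The D4 libraries were at −0.22, −0.34, −0.24 and −0.23, those of D5 at −0.03, −0.08, −0.06 and −0.06. The D6 libraries thus lay between those of the parent and those of GNA-G without overlap in this measure, which is given as a description with no test. For mer7m8 genes the means were −0.06 (SD 0.02, n = 4) with D6, −0.14 (SD 0.05, n = 4) with D4 and −0.02 (SD 0.0022, n = 4) with D5, and for mer7A1 genes the D4 and D6 libraries overlapped.

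**Figure D3:**
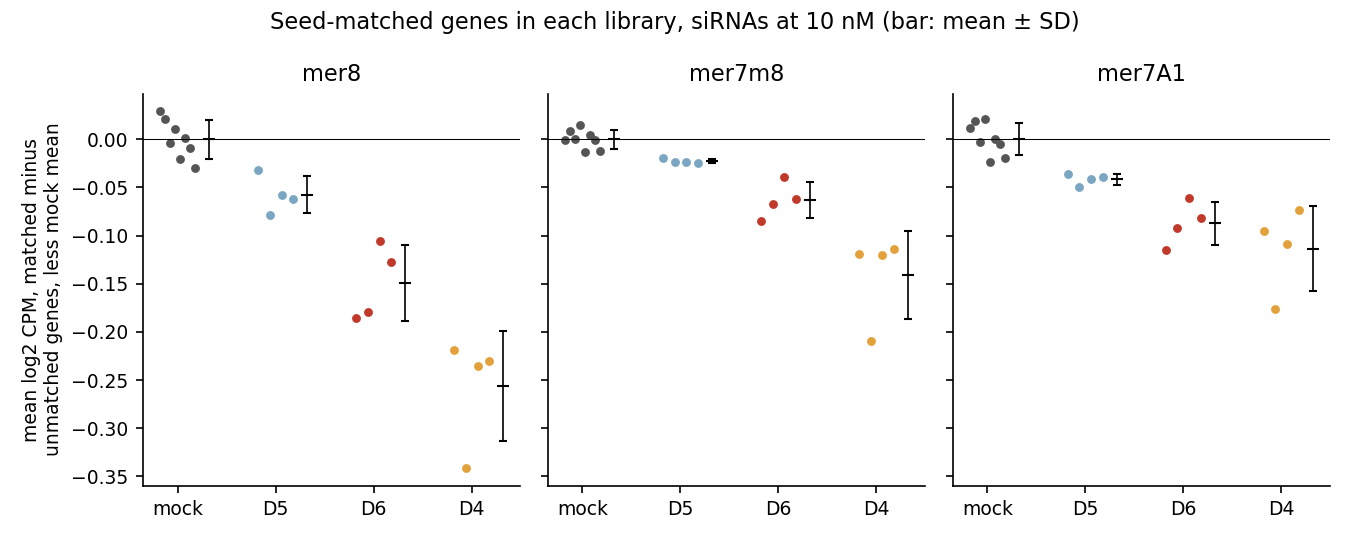
Each point is 1 library at 10 nM or mock, and the y axis is the mean log2 CPM of genes with the seed match named above the panel minus that of unmatched genes, less its mean over the 8 mock libraries; bars give the mean ± SD. For mer8 genes D6 lies between −0.19 and −0.11, below D5 (−0.08 to −0.03) and above D4 (−0.34 to −0.22).

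Kpna6, which encodes an importin α that carries proteins into the nucleus, fell without a seed match in its 3′-UTR. It was at 32.2, 39.6, 31.6 and 37.3 CPM with D6 and between 130 and 157 CPM (median 144) with mock, a log2 fold change of −2.03 (SE 0.07, adjusted p = 2.16e-23). Its 3′-UTR holds 14 letters in a row that are complementary to guide positions 5 to 18, shown in capitals, and the search for such runs was added after the value of Kpna6 had been seen.
Kpna6, chr4:129541273-129541302, minus strand: ccaaacaaAGTGTTCTTGCTCTgacccata
Eif2d, chr1:131102025-131102054, plus strand: aagaaagaAGTGTTCTTGCTCTgaaatcaa
The same 14 letters occur in an annotated 3′-UTR of Eif2d, a translation initiation factor, which was at 66.0 to 78.4 CPM with D6 and 63.1 to 78.9 CPM with mock (log2 fold change 0.03, SE 0.07, adjusted p = 0.77). With D4 Kpna6 was at 18.4, 23.3, 23.6 and 17.9 CPM, lower than with D6 (log2 fold change of D6 against D4 0.76, SE 0.13, adjusted p = 0.00304), and with D5 it was at 118, 117, 114 and 127 CPM (D6 against D5 −1.75, SE 0.08, adjusted p = 9.98e-18). Of the 12 tested genes other than Ttr with a complementary run of 14 or more bases anywhere in an annotated transcript, 3 including Kpna6 were lower, none was higher and the median log2 fold change was −0.06. Without Kpna6, whose value prompted the search, 2 of 11 were lower, near the 13.9% of all genes tested. For runs of 10, 11, 12 and 13 bases 178 of 1171, 56 of 333, 21 of 89 and 4 of 33 genes were lower. The other two lower genes were Alg14, a subunit of the enzyme that adds the second sugar to the N-glycan precursor (−0.96, SE 0.12, adjusted p = 6.51e-08), and Snx27, an endosomal sorting protein (−0.23, SE 0.07, adjusted p = 0.0127).

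The remaining large decreases were in genes of various functions. Lox, the enzyme that crosslinks collagen and elastin, was at 6.96, 7.46, 6.11 and 6.02 CPM with D6 and between 23.6 and 41.1 CPM (median 29.6) with mock, a log2 fold change of −2.22 (SE 0.17, adjusted p = 7.98e-12). Fbln2, a basement membrane glycoprotein, was at 24.9, 32.1, 23.7 and 17.9 CPM against 66.4 to 109 CPM, a log2 fold change of −1.85 (SE 0.16). F13b, the carrier subunit of clotting factor XIII, was at 3.18, 3.94, 3.56 and 1.51 CPM against 11 to 15.5 CPM, a log2 fold change of −2.04 (SE 0.21). None of these 3 genes has a seed match in the 3′-UTR searched. Tnnt2, a troponin of heart muscle that binds tropomyosin, had a log2 fold change of −1.92 (SE 0.16), Nck1, an adaptor that links phosphotyrosine to actin, −1.88 (SE 0.14), Pi4k2b, a kinase of phosphatidylinositol, −1.82 (SE 0.08), and Tstd3 −2.01 (SE 0.15). Cotl1, an actin-binding protein, had −2.18 (SE 0.34) at 0.377 to 1.79 CPM with D6. Of these 5 genes Nck1 holds a mer7m8 and Tstd3 a mer7A1 match. With D5, F13b (13.2, 12.2, 13.6 and 15.4 CPM) was within the mock range, and Lox (17.5, 45.1, 46.8 and 68.1 CPM) had 1 library below and 3 above it.

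The 12 largest increases included genes of adhesion and junctions, as well as others. Itgb4, the integrin β4 chain of hemidesmosomes, was at 52.1, 41.4, 42.0 and 42.0 CPM with D6 and between 2.32 and 5.58 CPM (median 4.06) with mock, an 11.6-fold increase (log2 fold change 3.53, SE 0.14, adjusted p = 2.72e-22). Epcam, an adhesion molecule of biliary and progenitor cells of the liver, was at 11.7, 11.4, 7.13 and 14.7 CPM against 0.587 to 2.81 CPM, a log2 fold change of 2.67 (SE 0.25, adjusted p = 3.38e-11). St14, the membrane serine protease matriptase, was at 21.3, 21.8, 23.2 and 19.9 CPM against 3.38 to 7.67 CPM, a log2 fold change of 1.99 (SE 0.16). Marveld3, a tight junction protein, rose by 1.95 (SE 0.25) on the log2 scale. In each of these genes all 4 D6 libraries lay above all 8 mock libraries, which the rule that picked them required.

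The other genes among the largest increases were Cnksr1, a scaffold of Ras signalling (2.04, SE 0.28), Rcan2, an inhibitor of calcineurin (1.81, SE 0.26), Sorl1, a sorting receptor (1.75, SE 0.24), Marcks, a substrate of protein kinase C at the membrane (1.69, SE 0.10), Slc22a26, an organic anion transporter (1.69, SE 0.22), Dennd2d, a Rab exchange factor (1.68, SE 0.26), Ablim3, an actin-binding LIM protein (1.67, SE 0.20), and Mturn (1.36, SE 0.33), where the values are log2 fold changes against mock. Of the 12 largest increases, 8 genes have no seed match, Marveld3, Ablim3 and Mturn hold a mer7m8 and Marcks a mer7A1 match. With D4 the levels of Itgb4 were higher than with D6, at 74.7, 86.4, 66.5 and 75.3 CPM (D6 against D4, log2 fold change −0.77, SE 0.10, adjusted p = 0.000367), and with D5 they were lower, at 18.1, 12.9, 13.2 and 8.73 CPM (D6 against D5, 1.77, SE 0.15, adjusted p = 1.21e-10).

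Epcam is also 1 of 3 cholangiocyte markers that rose, with Krt19 (0.46, SE 0.06) and Krt7 (0.97, SE 0.17), keratins of bile duct cells, among 6 tested. The other 3 (Spp1, Sox9 and Tspan8) did not pass the test. In these bulk libraries more cells of a type and more RNA per cell cannot be told apart, and the part of the marker level in the increase of epithelial genes was not tested.

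**Figure D4:**
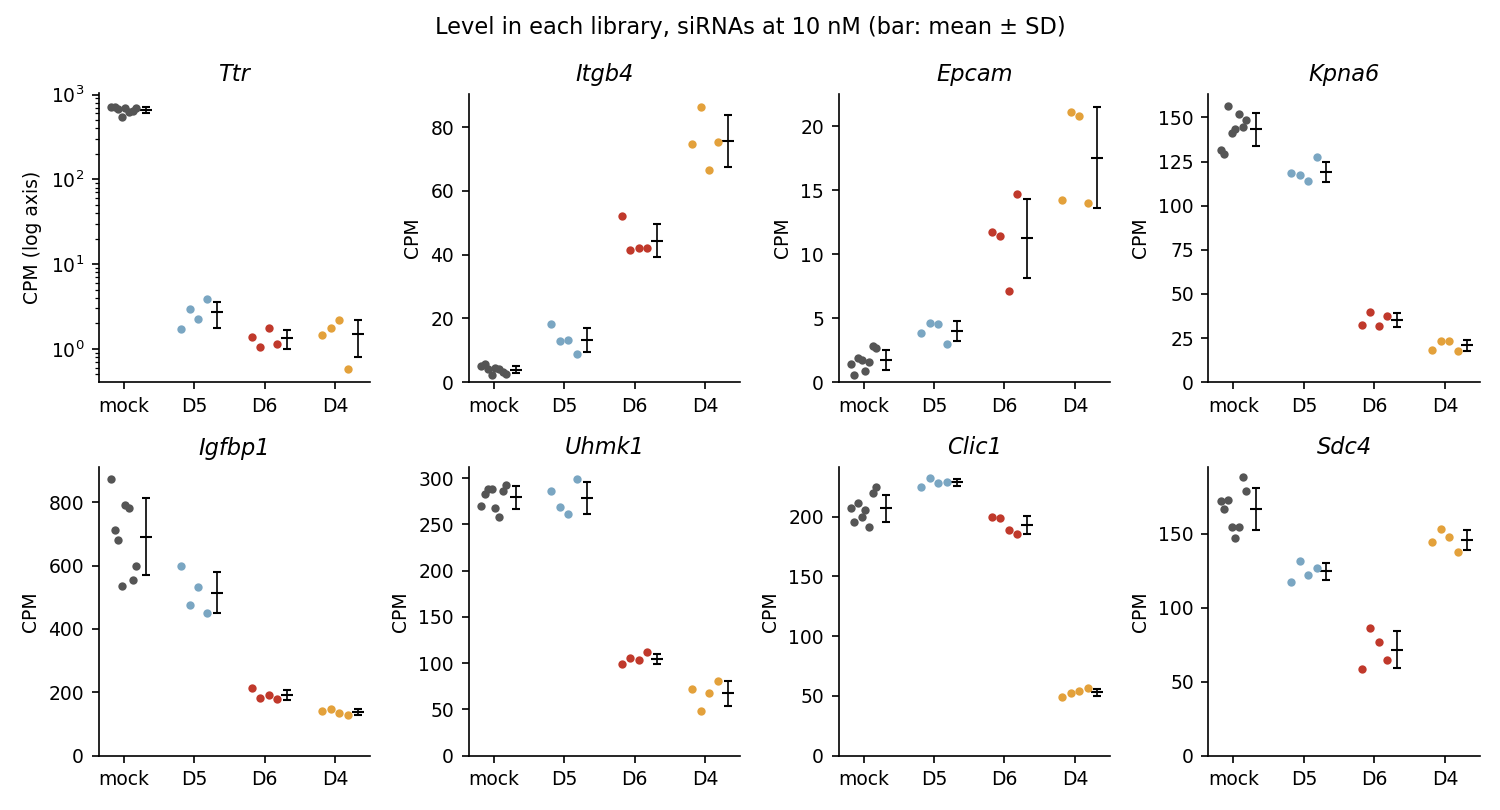
Level of 8 genes in CPM (y axis, log for Ttr and from 0 for the others) in each of the 8 mock libraries and the 4 libraries each of D5, D6 and D4 at 10 nM; bars give the mean ± SD. Ttr is near 1 to 4 CPM with all 3 siRNAs, Itgb4, Kpna6, Igfbp1 and Uhmk1 with D6 lie nearer D4 than mock, Clic1 is low with D4 and Sdc4 is lowest with D6.

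The change of these genes with the dose of D6 is given as group means of 4 libraries, with no test. Ttr was at 4.04, 1.59, 1.33 and 1.19 CPM at 0.1, 1, 10 and 50 nM. Kpna6 was at 132, 83.9, 35.2 and 31.3 CPM and Igfbp1 at 741, 589, 191 and 139 CPM. Itgb4 went the other way, at 4.78, 8.52, 44.4 and 37.4 CPM. Most of the loss of Ttr was thus present at the lowest dose, where Kpna6, Igfbp1 and Itgb4 were within or near their mock ranges.

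Lists of stress, growth and defence genes had the largest shares of members called lower among the 25 lists, where 13.9% of all genes tested were lower with a median log2 fold change of 0.00126. In the integrated stress response, which ATF4 drives when amino acids are short, 11 of 25 tested genes were lower and none higher, with a median of −0.18. Psat1 and Phgdh, enzymes of serine synthesis, fell by 0.53 (SE 0.06) and 0.40 (SE 0.07) on the log2 scale. Slc7a11, the cystine transporter, was at 172, 157, 153 and 136 CPM with D6 and between 253 and 381 CPM (median 327) with mock, a log2 fold change of −1.08 (SE 0.11, adjusted p = 8.17e-06), and holds a mer7m8 match. Cars, the cysteinyl-tRNA synthetase, had a log2 fold change of −0.29 (SE 0.05).

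In the unfolded protein response of the endoplasmic reticulum, 11 of 23 genes were lower and 1 (Atf6) higher, with a median of −0.16. Canx, a lectin chaperone, was at 564, 618, 629 and 624 CPM with D6 and between 794 and 844 CPM with mock (log2 fold change −0.42, SE 0.05, adjusted p = 2.07e-09). Manf, Hspa5 (BiP) and Calr fell by 0.52 (SE 0.06), 0.36 (SE 0.05) and 0.33 (SE 0.05) on the log2 scale. None of these 4 genes has a seed match, and none of their D6 libraries reached the mock range. Without D6 replicate 1, 7 of the genes were lower.

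Of 34 cell cycle genes 16 were lower and 4 higher, with a median of −0.13. Ccne1, the G1/S cyclin E1, was at 5.77, 6.01, 7.89 and 8.85 CPM with D6 and between 20.1 and 26.8 CPM with mock, a log2 fold change of −1.75 (SE 0.14, adjusted p = 1.23e-12), and holds a mer7A1 match. Rrm2, a subunit of ribonucleotide reductase, fell by 0.97 (SE 0.11), the mitotic kinase Plk1 by 1.03 (SE 0.14) and Cdk1 by 0.72 (SE 0.10) on the log2 scale. None of these 3 has a match.

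Of 32 interferon response genes 12 were lower and none higher, with a median of −0.38. Ddx58, the RNA sensor RIG-I, was at 129, 138, 130 and 126 CPM with D6 and between 153 and 196 CPM with mock (log2 fold change −0.41, SE 0.06, adjusted p = 2.00e-06). Oasl1, an inducible inhibitor of Irf7 translation, fell by 0.73 (SE 0.12), Cmpk2, a mitochondrial nucleotide kinase, by 0.76 (SE 0.12) and the virus-tethering protein Bst2 by 0.38 (SE 0.07) on the log2 scale. The count of 12 was 4 when every library of the series was fitted together, where Cmpk2 lost its call (log2 fold change −0.75, adjusted p = 0.338).

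**Figure D5:**
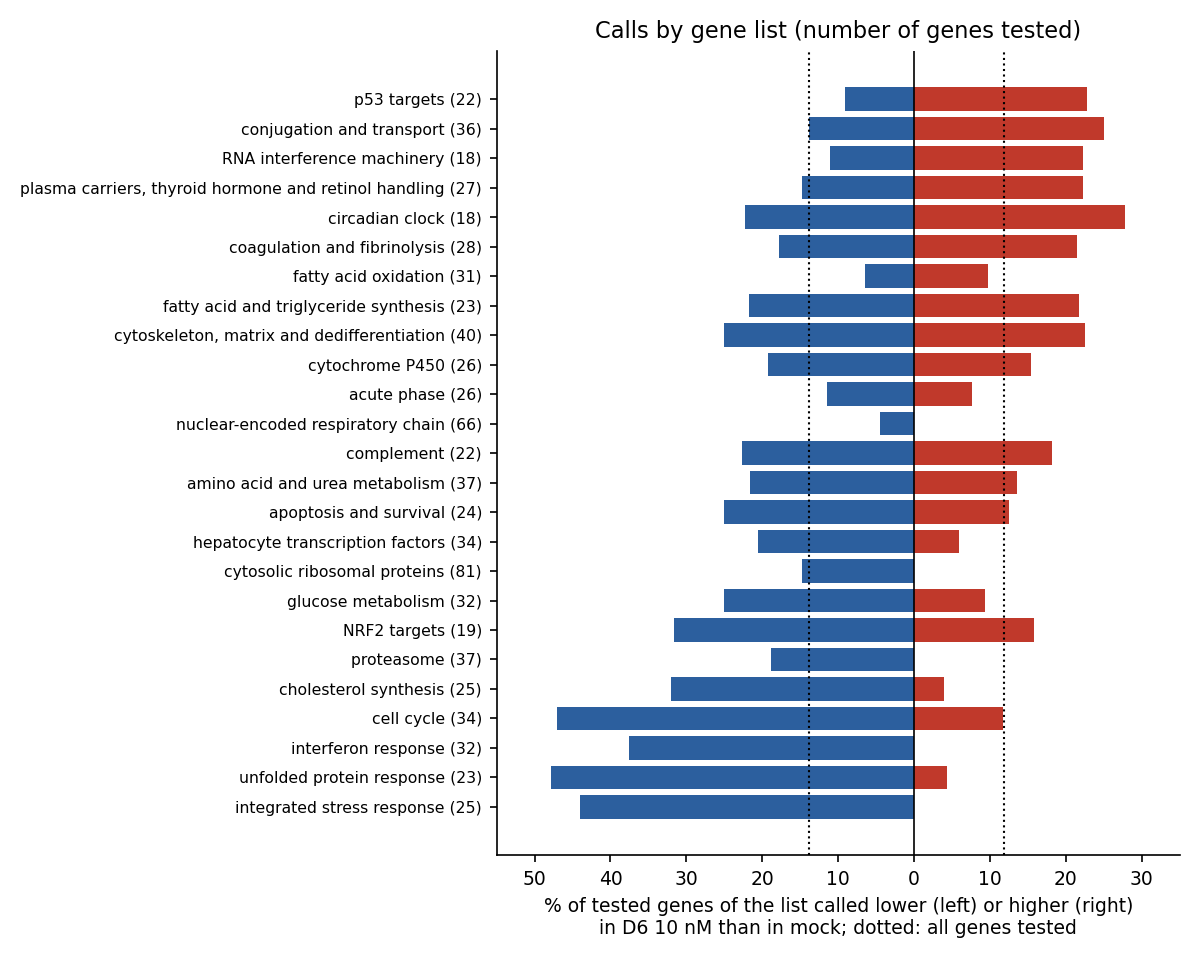
For each of 25 gene lists, the percentage of its tested genes called lower (left bars) or higher (right bars) with D6 at 10 nM than with mock; the number tested is in parentheses, and the dotted lines give 13.9% lower and 11.9% higher over all genes tested. The left bars of the integrated stress response, the unfolded protein response and the cell cycle exceed 40%.

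Of 24 apoptosis and survival genes 6 were lower and 3 higher, where 13.9% of all genes tested were lower and 11.9% higher. Bcl2l2, the survival protein BCL-W, was at 30.4, 25.5, 33.9 and 28.4 CPM with D6 and between 61.6 and 74.5 CPM with mock (log2 fold change −1.22, SE 0.09, adjusted p = 1.91e-14), and Xiap, the inhibitor of caspases, was at 88.9, 92.0, 115 and 106 CPM against 179 to 217 CPM (−0.98, SE 0.07, adjusted p = 2.42e-14). Both hold a mer8 match. Of 22 p53 targets 5 were higher, led by the antiproliferative gene Btg2 (0.98, SE 0.07) and the kinase Plk2 (0.51, SE 0.06), and 2 were lower, Ccng1 (−0.62, SE 0.06) and Trp53inp1 (−0.57, SE 0.07). The list of cytoskeleton, matrix and dedifferentiation genes moved both ways, with 9 of 40 higher and 10 lower. Col4a2, a collagen of basement membranes, was at 534, 518, 508 and 452 CPM against 236 to 286 CPM (0.89, SE 0.05, adjusted p = 6.95e-17) and E-cadherin (Cdh1) rose by 0.87 (SE 0.06) on the log2 scale. Both TGF-β receptor genes fell, Tgfbr1 to 12.7, 9.32, 13.8 and 14.5 CPM from 35.2 to 49.6 CPM in mock (−1.75, SE 0.13, adjusted p = 5.76e-14) and Tgfbr2 by 0.69 (SE 0.06) on the log2 scale, and each holds a mer7m8 match.

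Metabolic lists moved in both directions, where 13.9% of all genes tested were lower and 11.9% higher. Seed matches are not given for every gene named from the lists. In fatty acid and triglyceride synthesis 5 of 23 genes were higher and 5 lower. Acacb, the acetyl-CoA carboxylase at the mitochondrion, was at 50.5, 47.2, 54.2 and 42.2 CPM with D6 and between 15.9 and 25.5 CPM with mock (log2 fold change 1.21, SE 0.11, adjusted p = 4.62e-11), while Agpat2, an acyltransferase of phosphatidic acid synthesis with a mer7A1 match, was at 31.8, 30.9, 31.1 and 35.6 CPM against 62.7 to 74.0 CPM (−1.04, SE 0.08, adjusted p = 1.36e-13). Of 26 cytochrome P450 genes 4 were higher and 5 lower, of which Cyp2c70, the enzyme of muricholic acid formation in the mouse, had the smallest adjusted p (−1.38, SE 0.08, adjusted p = 2.95e-17, mer7A1 match) and Cyp2e1 fell by 0.93 (SE 0.15). Of 36 genes of conjugation and transport 9 were higher, among them Ephx1 (0.43, SE 0.06) and the efflux pump Abcg2 (0.46, SE 0.07). In this list 5 were lower, among them the carboxylesterase Ces1d (−1.10, SE 0.12, mer7m8 match). Of 25 cholesterol synthesis genes 8 were lower and 1 higher, with a median of −0.06. Stard4, a sterol carrier with a mer7m8 match, and Sc5d, a desaturase of sterol synthesis, fell by 0.42 (SE 0.06) and 0.39 (SE 0.06) on the log2 scale. With the replicate number as a block 5 genes of this list were lower.

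Calls in glucose and amino acid genes went both ways, where 13.9% of all genes tested were lower and 11.9% higher. Of 32 glucose genes 8 were lower, with Pkm at −0.40 (SE 0.06, mer7m8 match) and Ldha at −0.22 (SE 0.05), and 3 higher, with the kinase Pfkfb3 at 0.57 (SE 0.12). Of 37 genes of amino acid and urea metabolism 8 were lower and 5 higher. Hao1, glycolate oxidase and the target of D1 to D3, was at 22.7, 20.9, 21.9 and 22.0 CPM with D6 and between 27.8 and 38.8 CPM with mock (log2 fold change −0.62, SE 0.10, adjusted p = 1.09e-05), and holds a mer7A1 match to the Ttr guide. Cth, which makes cysteine and holds a mer7A1 match, fell by 0.68 (SE 0.08), and Aass, of lysine breakdown, rose by 1.0 (SE 0.19). Of 31 fatty acid oxidation genes 3 were higher and 2 lower. Gapdh was at 727, 703, 679 and 742 CPM against 691 to 780 CPM and did not pass the test (−0.06, SE 0.05, adjusted p = 0.373).

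Among plasma proteins, F12 (clotting factor XII) was at 95.5, 91.3, 90.1 and 90.7 CPM with D6 and between 67.9 and 87.8 CPM with mock (log2 fold change 0.23, SE 0.07, adjusted p = 0.0101). Of 28 coagulation genes 6 were higher and 5 lower, where 13.9% of all genes tested were lower and 11.9% higher. Among the lower ones were Fgg (−0.78, SE 0.06, mer7A1 match), Serpind1, the heparin cofactor II gene (−0.92, SE 0.11), and Lman1, the cargo receptor of factors V and VIII (−0.66, SE 0.06). Of 22 genes in the complement list 4 were higher and 5 lower. The lower ones include F13b, the clotting factor subunit named above, which is in the coagulation list as well. Of 26 acute phase genes 2 were higher and 3 lower, both below the shares of all genes tested. In the list of plasma carriers, thyroid hormone and retinol handling, 6 of 27 genes were higher and 4 lower. Apob, the protein of VLDL particles, fell by 0.49 (SE 0.08) on the log2 scale.

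Regulators gave calls on both sides, where 13.9% of all genes tested were lower and 11.9% higher. Of 18 clock genes 5 were higher, with Cry2 at 0.93 (SE 0.10) and Noct at 0.77 (SE 0.11), and 4 lower, with Clock at −0.88 (SE 0.11) and a mer7A1 match. Of 34 hepatocyte transcription factors 7 were lower, with Onecut2 at −0.66 (SE 0.10, mer7m8) and Rora at −0.85 (SE 0.14, mer8), and 2 higher. Of 19 NRF2 targets 6 were lower, with Gclm at −0.53 (SE 0.06) and the ferritin heavy chain Fth1 at −0.41 (SE 0.06), both with a mer7A1 match, and 3 higher, with Hmox1, heme oxygenase, at 0.84 (SE 0.15, adjusted p = 0.00181). Of 18 genes of RNA interference and siRNA uptake, which include both asialoglycoprotein receptor genes, 4 were higher, Tnrc6a (0.39, SE 0.06), Dicer1 (0.35, SE 0.06), Pan2 (0.51, SE 0.10) and Ago1 (0.28, SE 0.06), and 2 lower, the receptor gene Asgr2 (−0.56, SE 0.16) and Tnrc6b (−0.20, SE 0.07). Of 37 proteasome genes 7 were lower, with Psmd12 at −0.42 (SE 0.06). Among 66 nuclear-encoded respiratory chain genes 3 were lower, under the share of all genes tested, with Ndufa8 at −0.46 (SE 0.08). None was higher in either list. Of 81 cytosolic ribosomal protein genes 12 were lower, near the share of all genes tested. This count was 1 with the replicate number as a block, 6 and 5 without D6 replicate 1 or 3 and 21 without mock replicate 1. The proteasome count was 11 without mock replicate 1 or 2.

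The comparison of D6 with its parent D4 at 10 nM asks what the GNA-isoG residue changed. Few genes differed: 214 of 11168 (1.92%), of which 136 were higher with D6 (1.22%) and 78 lower (0.698%). Of 446 mer8 genes 23 were higher with D6 and 2 lower, with a median log2 fold change of 0.08, and of 8028 unmatched genes 74 were higher and 64 lower, with a median of −0.02. None of 25 integrated stress response genes was called against D4. Of 23 unfolded protein response, 34 cell cycle and 32 interferon response genes, 1, 1 and 2 were lower with D6 than with D4 and none higher. Few calls do not show that the levels were alike. The D4 libraries differ among themselves more than those of D6 do, since the chi-square divided by its degrees of freedom was 3.97 to 13.5 between pairs of D4 libraries and 2.72 to 4.19 between pairs of D6 libraries. D4 replicate 4 stands apart in interferon genes, with Cmpk2 at 23, 17.4, 22.3 and 116 CPM in the 4 libraries. The count of 214 depended on the D6 libraries and was 90, 60 and 92 without D6 replicate 2, 3 or 4, and likewise lower by over 1.5 times without D6 replicate 1. Other settings raised it, to 340 with DESeq2, 381 with the replicate block, 456 over all genes with a count and 798 with all libraries in one fit.

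Clic1, a chloride intracellular channel protein, gave the largest increase over D4. It was at 200, 199, 189 and 185 CPM with D6 and 49.3, 52.8, 54.0 and 56.3 CPM with D4 (log2 fold change 1.86, SE 0.08, adjusted p = 1.59e-12), and between 191 and 225 CPM in mock (D6 against mock −0.10, SE 0.05, adjusted p = 0.172). Unc119b, a ciliary lipid-binding protein, was at 106, 95.3, 94.0 and 95.4 CPM with D6 and 42.3, 39.5, 44.2 and 45.5 CPM with D4 (1.19, SE 0.09, adjusted p = 2.77e-08), and Slc25a17, a peroxisomal carrier, was higher by 1.04 (SE 0.11). None of the 3 holds a seed match in the 3′-UTR searched. Zfp850, a zinc finger gene with a mer7m8 match and a run of 14 bases complementary to guide positions 7 to 20, was at 4.58, 8.70, 5.35 and 7.15 CPM with D6 and 3.06, 1.38, 2.21 and 4.04 CPM with D4 (1.27, SE 0.31, adjusted p = 0.0376), and at 6.27 to 8.29 CPM in mock. Ugt2b1, a glucuronosyltransferase, was higher than with D4 by 1.18 (SE 0.28), below its mock range in every D6 library.

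Sdc4, the heparan sulfate proteoglycan syndecan 4, was lower with D6 than with any other group compared here. It was at 58.9, 86.4, 76.9 and 64.8 CPM with D6, 144, 153, 148 and 138 CPM with D4, 118, 131, 122 and 127 CPM with D5 and between 147 and 189 CPM with mock. The log2 fold change was −1.02 (SE 0.10, adjusted p = 3.41e-06) against D4, −0.79 (SE 0.09, adjusted p = 2.53e-08) against D5 and −1.22 (SE 0.08, adjusted p = 9.42e-12) against mock. It holds no intact seed match. Steap4, a metalloreductase, was at 45.0, 29.8, 31.1 and 33.3 CPM with D6 and 55.6 to 89.0 CPM with D4 (−0.96, SE 0.15, adjusted p = 0.00304), and Lad1, a basement membrane anchor protein, was lower by 0.80 (SE 0.13). Rcan2 and Kif1a, a kinesin motor, were lower than with D4 by 0.96 (SE 0.22) and 0.88 (SE 0.18). The calls of Zfp850, Ugt2b1, Rcan2 and Kif1a against D4 were lost when 1 of several libraries was left out, with log2 fold changes of 1.07 to 1.34, 1.01 to 1.19, −1.02 to −0.83 and −0.83 to −0.74 in those fits. They were also lost on 1 sequencing run alone, at 1.36 for Zfp850, −0.90 for Rcan2 and −0.73 for Kif1a with run 2 and at 0.73 for Ugt2b1 with run 1. Of 81 cytosolic ribosomal protein genes 21 were lower with D6 than with D4, a count that was 65 with every library of the series fitted together, 46 with DESeq2, 45 with the replicate block, 42 over all genes with a count, 8 on run 2 alone, 0 without D6 replicate 3, 3 without D6 replicate 1 or 2, 6 without D6 or D4 replicate 4 and 11 without D4 replicate 3.

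The comparison with D5 sets the isoguanine against the guanine base on the same GNA residue. Here 1918 of 11095 genes (17.3%) differed, with 770 higher (6.94%) and 1148 lower (10.3%) with D6. Of 448 mer8 genes 94 were lower with D6 (21%) and 25 higher (5.58%), with a median log2 fold change of −0.03. Of 7976 unmatched genes 8.80% were lower and 7.25% higher, with a median of 0.01. The comparisons of D6 with mock, with D4 and with D5 share the D6 libraries, so that their values are not independent.

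Of the genes with the largest differences from D5, Sorl1 was at 8.95, 9.94, 6.37 and 6.21 CPM with D6 and 3.41, 3.38, 0.825 and 0.699 CPM with D5 (1.96, SE 0.34, adjusted p = 0.000101), and Slc22a26 (1.76, SE 0.26), Epcam (1.52, SE 0.23) and Ydjc (1.49, SE 0.29) were higher as well. Lox was lower with D6 by 2.74 (SE 0.47, adjusted p = 0.00921), with D5 libraries spread from 17.5 to 68.1 CPM. F13b (−2.17, SE 0.23), Igfbp7, a secreted IGF-binding protein (−2.01, SE 0.27), and Fbln2 (−1.91, SE 0.13) were lower too. By list, 15 of 25 integrated stress response genes were lower with D6 than with D5 and none higher (median −0.30), and 14 of 25 cholesterol synthesis genes were lower and none higher (median −0.21), where the count was 8 without D6 replicate 3 or D5 replicate 2. Of 32 interferon response genes 10 were lower, against 1 when all libraries were fitted together. The cell cycle list did not lean to one side against D5, with 9 of 34 genes higher, 9 lower and a median of −0.03. Of 23 unfolded protein response genes 6 were lower than with D5 and none higher.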

How the data were processed

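Reads of TruSeq stranded total RNA libraries were filtered by the authors with fastq-mcf (mean quality 28, length 36), aligned to GRCm39 with STAR and counted per gene with featureCounts 2.0.2 (unique alignments, mapping quality of at least 10). The STAR version, the annotation and the strand setting are not given in the sources used here, so overlapping, antisense and near-identical genes are uncertain. The deposited counts per gene are not normalized and come as 2 sequencing runs per library. The deposited DESeq2 1.32.0 tables hold the authors' means, log2 fold changes, standard errors, Wald statistics and p-values. Their symbol column was used and nothing else.

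The counts of the 2 runs were summed, since runs of 1 library differed about as much as sampling gives (chi-square over degrees of freedom 0.998 to 1.03 with D6 and 1.01 to 1.05 with mock, against at least 1.67 between replicates). Of 55416 genes 52340 had a symbol and 54749 were in GENCODE vM39. The 92 ERCC spike-ins (0.521% to 1.14% of counts with D6) were left out. With these depths a gene at 1 CPM has about 4 to 5 counts, and intervals cover the spread of these libraries.

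Libraries were grouped by treatment label. Each comparison was fitted on its 2 groups with edgeR 4.0.16 in R 4.3.3 (TMM, filterByExpr, glmQLFit with robust, glmQLFTest, Benjamini-Hochberg over the genes tested). Tested on simulated counts of D6 and mock (11209 genes), it recovered 100%, 98.0% and 67.3% of genes changed by −2, −1 and −0.5 on the log2 scale and called 6 of 11013 unchanged genes. That simulation drew genes independently and changed few of them. Its rates need not hold for the data, where 2923 genes were called. In each library 3′-UTR matches were scored on log2 CPM (prior count 2). Genes named are Ttr, Hao1, F12 and Gapdh, the 12 largest increases and decreases against mock and the 5 against D4 and D5 (adjusted p under 0.05, groups without overlap, mean of at least 5 CPM in the higher group, no predicted-gene symbol), the 6 mer8 genes of largest decrease, and up to 4 called genes of smallest adjusted p per list. Atf6, Eif2d, Alg14, Snx27, Asgr2, Tnrc6b and markers were named after their values were seen. Some genes that the rule would name are not reported here. The comparisons, the 25 gene lists and the 6 marker lists were chosen with earlier results of these data known.

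As alternatives, each library was left out, each run was used alone, the replicate number was added as a block, every library of the series was fitted together, the filter was dropped, RLE scaling replaced TMM, and DESeq2 1.42.0 (betaPrior) replaced edgeR. For seed medians they were a mean of at least 5 CPM and the canonical 3′-UTR. Replicate numbers 5 to 8 exist in mock only, so with the block these mock libraries add nothing to the comparison with D6. Calls against mock that were lost with the block may thus reflect fewer libraries as well as the block itself. Same-numbered libraries of D6 and D5 deviated together weakly (correlations of deviations from group means 0.126, 0.146, 0.128 and 0.163). D6 replicate 3 and D5 replicate 1, which differ in number, reached 0.126. The numbers may thus pair these libraries, but neither the labels nor these values settle it, and the main test used no pairing. Guide positions were taken from the siRNA sequences given by the study.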

Additional observations from a re-analysis of the deposited data

Results flagged for a closer look

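In 3 of 62 groups of values checked, over Ttr, the genes of largest change and the depth measures in the 4 D6 and 8 mock libraries, 1 library lay far from the rest of its group, where chance gives about 1 in 20. Itgb4 was at 52.1 CPM in D6 replicate 1, against 42.0 CPM in the nearest other library, and its log2 fold change against mock without that library was 3.45. Slc22a26 was at 13.2 CPM in D6 replicate 4, against 8.66 CPM in the nearest other library, and its log2 fold change without that library was 1.5. F13b was at 15.5 CPM in mock replicate 5, against 12.9 CPM in the nearest other library, and its log2 fold change without that library was −1.99. All 3 genes passed the test without the library (edgeR, adjusted p = 3.79e-20, 9.08e-06 and 1.17e-09).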

How the results depend on the processing

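The count of genes called between D6 and D4, 214, was 340 with DESeq2 and betaPrior, 456 over all genes with a count, 798 with all libraries in one fit and 381 with the replicate block. Between 60 and 225 genes were called with 1 library left out. The count against mock, 2923, stayed within 1.5 times under every alternative (2255 to 2886 with a library left out, 2496 with the replicate block, which kept 2236 of the calls), as did that against D5, 1918 (1544 to 1834 with a library left out, 2475 with the block, which kept 1917). Same-numbered libraries of D6 and mock correlated at −0.03 to 0.21 and of D6 and D4 at −0.01 to 0.27. Differently numbered libraries reached 0.24 and 0.27, so a pairing by number was not shown there. The median of mer8 genes against mock, −0.09, was −0.0376 with DESeq2, whose fold changes are shrunken, and −0.10 to −0.09 with a library left out, these fits and the list counts being chosen after the data were seen. Ttr lay between −9.10 and −8.85 with a library left out and at −7.03 with DESeq2. Of 2723 values of single genes under alternatives, 52 in 16 genes fell short of the threshold and none changed direction. Most of these genes were picked for passing the test in these same libraries, which left little room for a change of direction. Depth limits Ttr between siRNAs, at 5 to 7 counts per D6 library.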

Other observations

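Matches outside the guide seed in the 3′-UTR were counted in the same comparison of D6 at 10 nM with mock, chosen after the data were seen and with no test. The seed of the passenger strand, the other strand of the duplex, would pair with ACACTGT. Of 2149 genes with these letters in the 3′-UTR and no guide seed match 258 were lower (12%) and 299 higher, with a median log2 fold change of 0.03, and of 5933 genes with neither 702 were lower (11.8%) and 763 higher, with a median of 0.01. Of 61 genes with a mer8 match in coding sequence but none in the 3′-UTR 9 were lower (14.8%) and 14 higher. Of 144 genes with 2 or more matches to guide positions 2 to 8 in the 3′-UTR 39 were lower (27.1%, median −0.09), and of 1198 genes with 1 such match 262 were lower (21.9%, median −0.05).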
